A study of Mus musculus with 7 samples.

Results

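Prostaglandins and leukotrienes are lipid mediators made from arachidonic acid, and 10 genes of their synthesis, signalling and breakdown were described in the lungs of bleomycin-challenged mice with and without hyperbaric oxygen (HBO). The genes were taken by name from the deposited count table of 55401 genes, with symbols from GENCODE vM21. They comprised the cyclooxygenases Ptgs1 and Ptgs2, the terminal synthases Ptges and Ptgds, the prostaglandin-degrading enzyme Hpgd, the prostaglandin E2 receptor Ptger4, the 5-lipoxygenase Alox5 with its partner protein Alox5ap, the leukotriene C4 synthase Ltc4s and the 12/15-lipoxygenase Alox15. All 10 were found, each under 1 gene identifier, and all 10 passed the filter on low counts.

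RNA from the right lung lobes was sequenced for 4 mice given bleomycin (BLM) and 3 mice given bleomycin and HBO (BLM+HBO), 1 library per mouse. All were male C57BL/6 mice of 6 to 8 weeks and 20 to 25 g, and every mouse had been given bleomycin, an antitumour antibiotic whose lung toxicity leads to fibrosis, so no uninjured lung enters the comparison. From day 7 after instillation the BLM+HBO mice breathed oxygen in a pressure chamber at 2.5 ATA for 90 min per day over 14 days, and lungs were taken at day 21. Whether the BLM mice also spent time in the chamber without pressurised oxygen, as the sample records have it, or were left untreated, as the Supplementary methods have it, was not settled here. Mice whose weight loss was too small had been excluded by the study as not having developed the model.

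Phospholipase A2 enzymes release arachidonic acid from membranes, and cyclooxygenases turn it into prostaglandin H2, from which terminal synthases make prostaglandin E2, prostaglandin D2, prostacyclin and thromboxane. The 5-lipoxygenase, which needs the membrane protein FLAP encoded by Alox5ap, starts the other branch and leads to the leukotrienes. In the fibrotic lung, prostaglandin E2 is known to restrain fibroblasts, and leukotrienes are known to drive inflammation and to act on fibroblasts.

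Total counts ranged from 18157161 to 26365969 over the 7 mice. A level is given in CPM, the read count scaled by the TMM-normalized library size, and the groups were compared by the quasi-likelihood test of edgeR over 17465 genes, with BLM as the reference. In a principal component analysis BLM+HBO 2 lay nearest to the BLM mice, at -0.996 on a first component on which the BLM mice lay between -47.6 and -6.08 and the other BLM+HBO mice at 37.8 and 54.9. For the main results, values without BLM+HBO 2 or another single mouse are also given. The lung epithelial markers were abundant in every mouse, with Sftpc between 4549 and 16260 CPM.

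Ptgs1 and Ptges, which encode the constitutive cyclooxygenase and the inducible prostaglandin E2 synthase, were lower in BLM+HBO lungs, and so were Alox5ap and Alox5 of the leukotriene branch, all at an unadjusted P below 0.05 by edgeR. After adjustment over all tested genes edgeR called none of them and DESeq2 called Ptgs1 and Ptges. Ptgs2, the inducible cyclooxygenase, did not differ detectably. Hpgd, the enzyme that inactivates prostaglandin E2, was the most abundant of the 10 genes per length and was higher on average in BLM+HBO, with opposite positions in single mice. Ptgds, Ptger4, Ltc4s and Alox15 overlapped between the groups, and so did Alox5, Ptgs2 and Hpgd. By edgeR the unadjusted P of Alox5 was above 0.05 without BLM 1, BLM 2, BLM 3 or BLM+HBO 1. That of Alox5ap was above 0.05 without BLM+HBO 3.

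Of the 10 genes, 4 had an unadjusted P below 0.05 by edgeR, all lower in BLM+HBO, where 10.7% of all tested genes passed this threshold in either direction and 5.54% were lower and 5.11% higher. With a fold change above 1.5 required as well, as the study did, 1 of the 10 passed (Ptges), against 6.29% of all tested genes, 2.89% lower and 3.4% higher. At an adjusted P below 0.05 edgeR called 0 of the 10 and 0.0% of all tested genes, and DESeq2 called 2 of the 10 (Ptgs1 and Ptges) and 0.918% of the genes it gave an adjusted P. For 3 of the 10, Ptgs1, Ptges and Alox5ap, every BLM+HBO mouse lay below every BLM mouse, which held for 4.72% of all tested genes, with a further 4.05% that lay wholly above and 8.77% in either direction. The median log2 fold change of the 10 was -0.445, beside 0.01 over all tested genes. In whole lung, fewer cells of a type and less RNA per cell cannot be told apart.

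**Figure D1:**
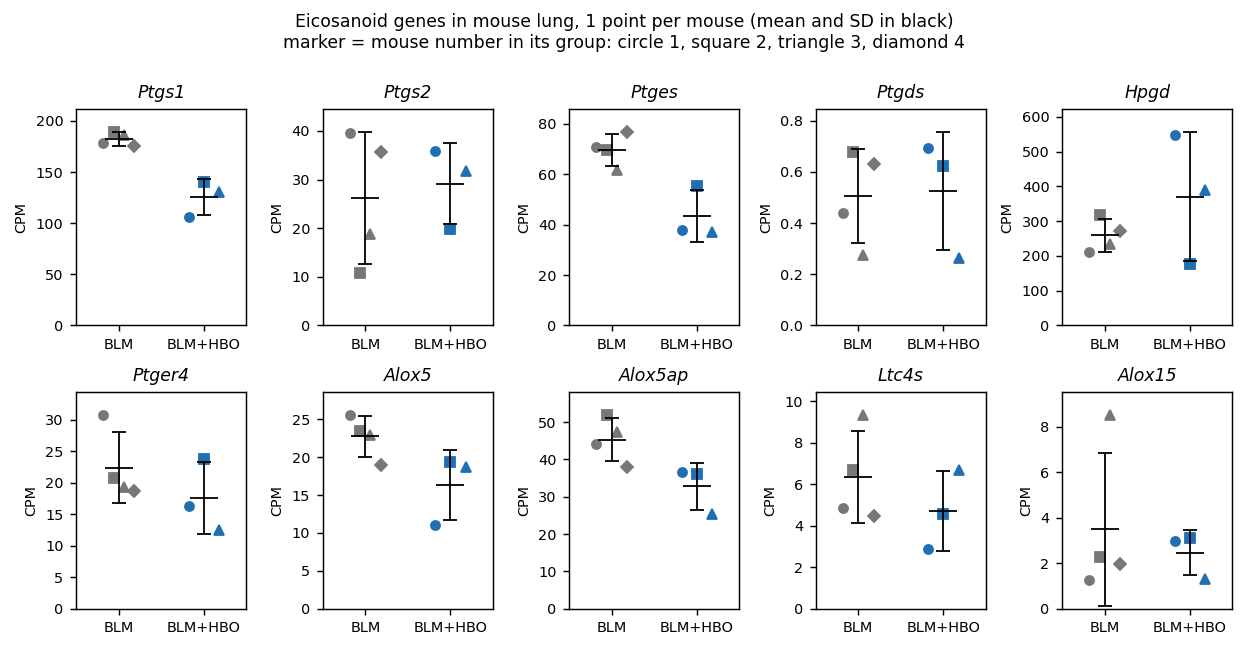
Level of each of the 10 genes in CPM (vertical axis from 0, scaled per gene) in the 4 BLM and 3 BLM+HBO mice, 1 point per mouse with the mean and SD in black. The BLM+HBO mice lie below all BLM mice for Ptgs1, Ptges and Alox5ap, and the square of BLM+HBO 2 lies apart from the other BLM+HBO mice for Hpgd, at 176 CPM against 389 and 547 CPM.

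Ptgs1 (chr2:36230426-36252272 in GRCm38, plus strand) encodes COX-1, the cyclooxygenase present in most tissues at rest. It was at 178.5, 189, 186 and 175 CPM in the 4 BLM mice and at 106, 140.4 and 131 CPM in the 3 BLM+HBO mice. The BLM mice were close to each other, with a coefficient of variation of 3.55%, and all BLM+HBO mice were lower, BLM+HBO 1 the lowest. The 4 BLM mice had a mean ± SD of 182 ± 6.46 CPM and the 3 BLM+HBO mice of 126 ± 17.65 CPM, and the log2 fold change was -0.54 (SE 0.12, 95% interval -0.80 to -0.27), with an unadjusted P of 0.00116 and an adjusted P of 0.423 by edgeR. The fold of 1.45 lay just under the limit of 1.5. DESeq2 gave an adjusted P of 0.021, and over all alternatives the adjusted P ran from this value to 0.802. Without BLM+HBO 2 the edgeR log2 fold change was -0.62 with an adjusted P of 0.0561.

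Ptgs2 (chr1:150100031-150108227, plus strand) encodes COX-2, the cyclooxygenase that inflammatory signals induce. It was at 39.5, 10.9, 18.7 and 35.6 CPM in BLM and at 35.8, 19.9 and 31.8 CPM in BLM+HBO. The BLM mice alone spanned the whole range of both groups, BLM 2 lowest and BLM 1 highest. The mean ± SD was 26.2 ± 13.6 CPM over 4 and 29.2 ± 8.30 CPM over 3 mice, and the log2 fold change of 0.15 (SE 0.39) had a 95% interval of -0.73 to 1.04, which leaves room for a change in either direction (adjusted P = 0.918, edgeR). The sign turned without BLM 2 (-0.10) and without BLM+HBO 1 (-0.02).

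Ptges (chr2:30889471-30929863, minus strand) encodes the microsomal prostaglandin E synthase that acts downstream of COX-2. Its levels were 70.65, 69.5, 61.5 and 76.8 CPM in BLM and 37.7, 55.5 and 37.3 CPM in BLM+HBO. The groups did not overlap, and BLM+HBO 2 was the BLM+HBO mouse nearest to the BLM mice. The mean ± SD went from 69.6 ± 6.30 CPM in 4 mice to 43.5 ± 10.4 CPM in 3, which was a log2 fold change of -0.68 (SE 0.16, 95% interval -1.03 to -0.33) and a 1.6-fold lower level, with an unadjusted P of 0.00170 and an adjusted P of 0.423 by edgeR. The adjusted P was 0.0305 by DESeq2, 0.0123 by edgeR without the filter on low counts (a setting that called Ptgs1 and Ptges of the 10 and 1.18% of all genes) and 0.0272 by edgeR without BLM+HBO 2, and up to 0.802 under the other alternatives.

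Ptgds (chr2:25466709-25470046, minus strand) encodes the lipocalin-type prostaglandin D2 synthase. It had between 5 and 13 reads per mouse, or 0.2745 to 0.676 CPM in BLM and 0.2625 to 0.692 CPM in BLM+HBO. The groups covered the same range, with a log2 fold change of 0.03 (SE 0.51, 95% interval -1.12 to 1.18), and a difference was not detectable at this depth.

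Hpgd (chr8:56294585-56321043, plus strand) encodes 15-hydroxyprostaglandin dehydrogenase, which inactivates prostaglandin E2 and related prostaglandins. It was at 210.5, 319, 235 and 273 CPM in BLM and at 547, 176 and 389 CPM in BLM+HBO. BLM+HBO 1 and BLM+HBO 3 were the highest of the 7 mice and BLM+HBO 2 the lowest. The mean ± SD was 259 ± 47.2 CPM over 4 BLM mice and 371 ± 186 CPM over 3 BLM+HBO mice, and the log2 fold change of 0.52 (SE 0.31, 95% interval -0.19 to 1.22) had an unadjusted P of 0.132 and an adjusted P of 0.580 by edgeR. Without BLM+HBO 2 it was 0.85 with an unadjusted P of 0.00157 and an adjusted P of 0.0660 by edgeR, and without BLM+HBO 1 it was 0.12 with an adjusted P of 0.935, the lowest and highest adjusted P of its alternatives.

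Ptger4 (chr15:5206661-5244187, minus strand) encodes EP4, a receptor for prostaglandin E2 that raises cyclic AMP. It was at 30.7, 20.8, 19.3 and 18.7 CPM in BLM and at 16.3, 23.8 and 12.5 CPM in BLM+HBO. BLM+HBO 2 lay above 3 of the 4 BLM mice and the other BLM+HBO mice below all of them. The log2 fold change was -0.35 (SE 0.25, 95% interval -0.91 to 0.20) with all mice (unadjusted P = 0.187, edgeR), and -0.64 without BLM+HBO 2 (unadjusted P = 0.0247 and adjusted P = 0.232, edgeR).

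Stretches of DNA before the start of the cyclooxygenase genes, of Ptges and of Hpgd are shown because these 4 genes make or inactivate prostaglandin E2 and gave the results above. The sequences are from RefSeq (GRCm38.p6), which held a promoter for 8 of the 10 genes, all but Alox5ap and Alox15. Each is the 250 bases before the RefSeq start, 5′ to 3′ on the strand of the gene, and capitals mark the GC box GGGCGG, also where it reads CCGCCC on this strand. For Ptges the RefSeq start, and the stretch before it, lie inside the span given above for the counted gene.
Ptgs1, chr2:36230176-36230425, plus strand: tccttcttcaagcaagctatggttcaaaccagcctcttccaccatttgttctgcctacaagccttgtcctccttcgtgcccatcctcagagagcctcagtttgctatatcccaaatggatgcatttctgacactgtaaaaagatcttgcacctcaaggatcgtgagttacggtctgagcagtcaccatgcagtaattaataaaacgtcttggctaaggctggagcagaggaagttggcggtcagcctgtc
Ptgs2, chr1:150099781-150100030, plus strand: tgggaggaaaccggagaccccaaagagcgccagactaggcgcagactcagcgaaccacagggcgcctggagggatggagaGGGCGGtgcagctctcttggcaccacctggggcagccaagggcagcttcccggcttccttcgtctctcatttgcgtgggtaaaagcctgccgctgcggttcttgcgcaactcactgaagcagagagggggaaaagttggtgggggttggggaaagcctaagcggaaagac
Ptges, chr2:30903298-30903547, minus strand: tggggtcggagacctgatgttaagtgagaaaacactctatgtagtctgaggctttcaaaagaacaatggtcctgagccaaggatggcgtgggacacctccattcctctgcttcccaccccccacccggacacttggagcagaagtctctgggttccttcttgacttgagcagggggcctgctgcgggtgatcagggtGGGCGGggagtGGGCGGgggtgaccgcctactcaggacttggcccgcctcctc
Hpgd, chr8:56294302-56294551, plus strand: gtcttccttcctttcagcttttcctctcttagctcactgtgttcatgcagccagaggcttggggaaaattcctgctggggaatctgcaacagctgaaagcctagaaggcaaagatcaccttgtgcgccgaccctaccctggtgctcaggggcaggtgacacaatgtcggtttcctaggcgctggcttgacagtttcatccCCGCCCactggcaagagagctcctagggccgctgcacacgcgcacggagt
In Ptgs2, the 30 bases that follow, chr1:150100031-150100060, hold an E-box, CACGTG, given in capitals.
Ptgs2 from its start: agagtcaccactacgtCACGTGgagtccgc

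Motifs were searched by their letters on both strands in the 300 bases from 250 before to 50 after each start, and a match is a description of the letters and not of a bound site. The GC box GGGCGG was found for Ptgs2 at position -170 from the start, for Ptges at -53 and -42, for Hpgd at -50, for Alox5 at -35 and for Ptger4 at -148, -143, -95 and -42. It was held by 35.7% of all 32851 promoters in the table. The E-box CACGTG at position 17 of Ptgs2 also reads as ACGTG, a form of the core letters of the hypoxia response element, on both strands, so these are matches to the same bases. The form GCGTG was not searched. It can be read in the stretches shown for Ptgs2 and Ptges and, on the other strand, for Hpgd. ACGTG was held by 19.6% of all promoters and CACGTG by 7.15%. The TATA box letters TATAAA were found for Hpgd at position 5 (13.6% of all promoters), and CCAAT for Ptger4 at -75 (37.4%). TGACGTCA, the cyclic AMP response element, was in none of the 8 and in 1.79% of all promoters. None of the 6 motifs was in the window of Ptgs1, Ptgds or Ltc4s.

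Alox5 (chr6:116410077-116461178, minus strand) encodes 5-lipoxygenase, which makes leukotriene A4. It was at 25.55, 23.45, 22.95 and 19.0 CPM in BLM and at 11.1, 19.4 and 18.7 CPM in BLM+HBO. BLM+HBO 2 lay just above BLM 4, so the groups overlapped, and BLM+HBO 1 was the lowest mouse. The log2 fold change was -0.47 (SE 0.20, 95% interval -0.93 to -0.01), with an unadjusted P of 0.0450 and an adjusted P of 0.463 by edgeR. Without BLM+HBO 1 it was -0.26 with an unadjusted P of 0.138 by edgeR, and leaving out BLM 1, BLM 2 or BLM 3 gave an unadjusted P of 0.100, 0.0839 and 0.0749.

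Alox5ap (chr5:149264767-149288153, plus strand) encodes FLAP, which presents arachidonic acid to 5-lipoxygenase. It was at 44.2, 51.85, 47.2 and 38.0 CPM in BLM and at 36.7, 36.1 and 25.5 CPM in BLM+HBO. All BLM+HBO mice were below all BLM mice, by a small margin between BLM 4 and BLM+HBO 1. The log2 fold change was -0.47 (SE 0.16, 95% interval -0.83 to -0.11), with an unadjusted P of 0.0156 and an adjusted P of 0.423 by edgeR, and without BLM+HBO 3 it was -0.32 with an unadjusted P of 0.0582.

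Ltc4s (chr11:50236461-50238616, minus strand) encodes leukotriene C4 synthase, which makes the first of the cysteinyl leukotrienes. It was at 4.85, 6.71, 9.33 and 4.48 CPM in BLM and at 2.875, 4.55 and 6.71 CPM in BLM+HBO. The groups overlapped, with a log2 fold change of -0.42 (SE 0.35, 95% interval -1.21 to 0.37) and an unadjusted P of 0.259 by edgeR. The antisense gene Gm26542 shares 26.4% of the exon length of Ltc4s, and the counting did not use the strand, so the value of Ltc4s is uncertain to that extent. Such antisense overlaps covered 13.3% of the exon length of Alox5ap (Gm19719), 15.3% and 1.2% of Ptger4 (Gm15937 and Ttc33) and 3.8% of Ptgs1 (Gm43621).

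Alox15 (chr11:70344152-70352031, minus strand) encodes the 12/15-lipoxygenase of macrophages and eosinophils. It was at 1.27, 2.25, 8.51 and 1.95 CPM in BLM and at 2.98, 3.11 and 1.31 CPM in BLM+HBO. BLM 3 stood far above the other 6 mice. The log2 fold change was -0.51 (SE 0.63, 95% interval -1.93 to 0.91, unadjusted P = 0.442 by edgeR), and without BLM 3 it was 0.43.

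**Figure D2:**
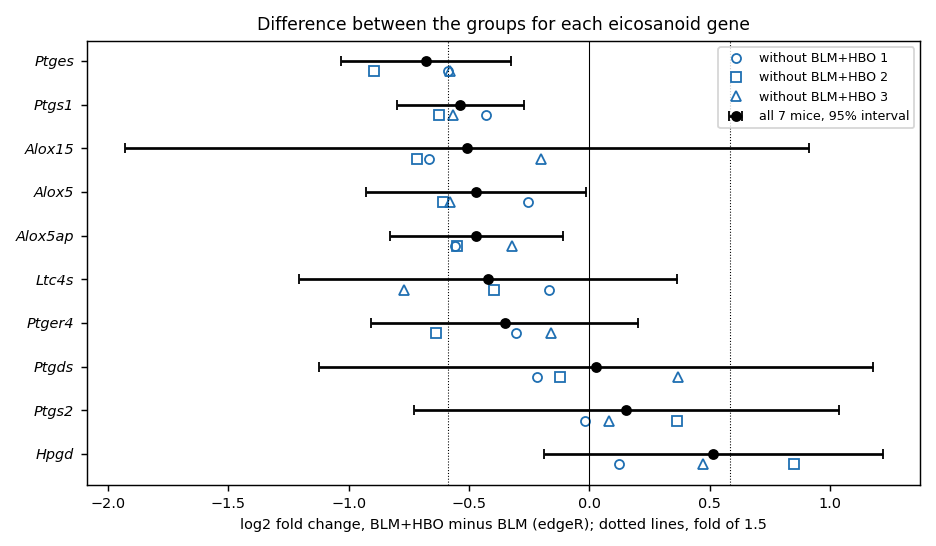
Log2 fold change of BLM+HBO against BLM (horizontal axis, edgeR) for each gene, with the 95% interval over all 7 mice in black and the value without each BLM+HBO mouse as an open symbol, dotted lines at a fold of 1.5. The intervals of Ptges, Ptgs1, Alox5ap and Alox5 lie below 0, and Hpgd spans 0.12 to 0.85 depending on which BLM+HBO mouse is left out.

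Without BLM+HBO 2, 6 of the 10 genes had an unadjusted P below 0.05 by edgeR (Ptgs1, Ptges, Alox5, Alox5ap and Ptger4 lower, Hpgd higher), against 15.9% of all tested genes in that fit. Of these, 5 also had a fold change above 1.5, all but Alox5ap, against 10.7%, and 1 (Ptges) had an adjusted P below 0.05, against 1.49%. For 7 of the 10 genes BLM+HBO 2 was the BLM+HBO mouse nearest to the BLM mean, and so it was for 34 of the 59 other listed pathway genes. The share over all tested genes was not counted, so this is not a trait of the 10 genes. Without BLM+HBO 3, in contrast, 0 of the 10 passed the thresholds of P and fold, since Ptges had a log2 fold change of -0.58, against 4.95% of all tested genes in that fit. At the unadjusted P alone 3 of the 10 passed without BLM+HBO 3 (Ptgs1, Ptges and Alox5), against 7.14% of all tested genes, and 3 without BLM+HBO 1 (Ptgs1, Ptges and Alox5ap), against 5.7%, all lower in BLM+HBO.

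The 10 genes spanned a wide range of levels when the CPM was divided by the exon length in kb. Hpgd had a mean of 154 ± 28.0 CPM per kb in BLM and 220.3 ± 110.6 in BLM+HBO (SD, n = 4 and 3), and in every mouse it lay above Ptgs1, at 46.9 ± 1.66 and 32.4 ± 4.545. Alox5ap followed, at 31.9 ± 4.10 and 23.1 ± 4.45, and then Ptges, at 17.7 ± 1.60 and 11.1 ± 2.65 CPM per kb. This order of Hpgd, Ptgs1, Alox5ap and Ptges held within each of the 7 mice, although the ranges over mice overlapped between Ptgs1 and Alox5ap and between Alox5ap and Ptges. Ptgs2, Ltc4s and Alox5 had means over all mice of 6.00, 5.56 and 4.88 CPM per kb, with overlapping ranges, and each neighbouring pair of these 3 was in that order in only 4 of 7 mice. Ptger4 was at 3.05 CPM per kb, below Alox5 in every mouse, and Alox15 at 1.245 CPM per kb, below Ptger4 in 6 of 7 mice. Ptgds was lowest, at 0.312 CPM per kb, below Alox15 in every mouse.

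Ratios of the levels per length within each mouse set enzymes of the same branch side by side. The ratio of Ptges to Hpgd sets 1 prostaglandin E synthase against the enzyme that inactivates prostaglandin E2, and leaves out other synthases such as Ptges3. It was 0.144, 0.0934, 0.112 and 0.1205 in BLM and 0.0295, 0.135 and 0.0410 in BLM+HBO. BLM+HBO 1 and BLM+HBO 3 lay below all BLM mice, and BLM+HBO 2 lay among them. The mean log2 difference was -1.09, with an SD of 0.26 in BLM and 1.153 in BLM+HBO, and it was -1.74 when BLM+HBO 2 was left out and -0.64 when BLM+HBO 1 was. The ratio of Ptgs2 to Ptgs1 was 0.188, 0.0487, 0.0855 and 0.172 in BLM and 0.286, 0.120 and 0.2065 in BLM+HBO, so Ptgs1 exceeded Ptgs2 in every mouse and the groups overlapped. Alox5ap exceeded Alox5 in every mouse, by 4.998 to 6.395 times in BLM and 3.935 to 9.58 times in BLM+HBO. The ratios of Ptges to Ptgds, Ltc4s to Alox5ap and Alox15 to Alox5 also overlapped between the groups.

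**Figure D3:**
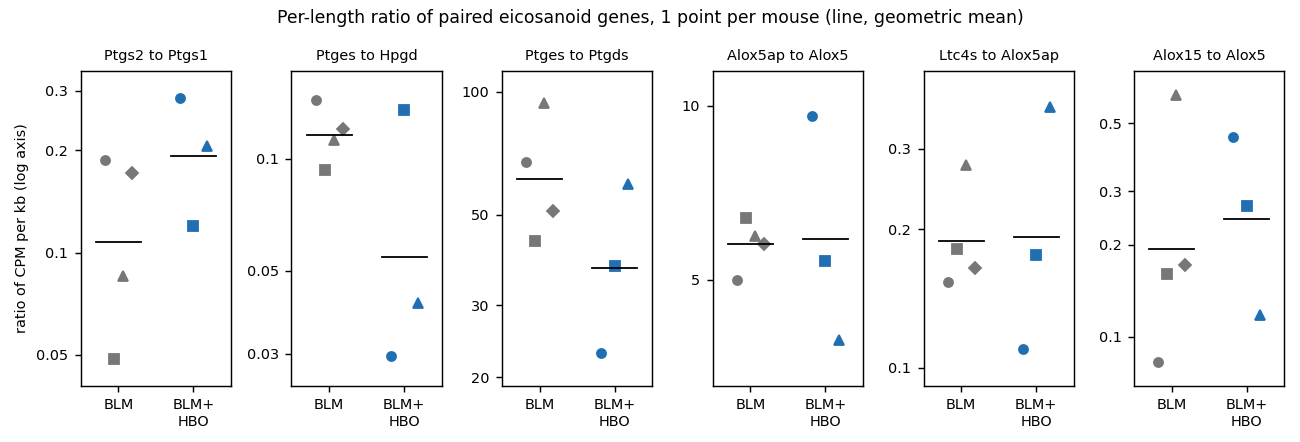
Ratio of the levels per kb of 6 pairs of eicosanoid genes within each mouse (vertical log axes, scaled per pair), with the geometric mean of each group as a line. The ranges of the groups overlap for all 6 pairs, and for Ptges to Hpgd BLM+HBO 2 at 0.135 lies within the BLM range while BLM+HBO 1 and BLM+HBO 3 lie below it.

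The other genes of the pathway, listed by role, gave a mixed picture. Of 59 listed genes 50 passed the filter on low counts, and 6 of them were lower and 5 higher in BLM+HBO at an unadjusted P below 0.05 by edgeR, which is 11 of 50 where 10.7% of all tested genes passed. With a fold change above 1.5, 9 of the 50 passed, against 6.29% of all tested genes. None had an adjusted P below 0.05 by edgeR with all mice. DESeq2 called 3 (Hpgds, Cbr2 and Ptgfr), against 0.918% of the genes it gave an adjusted P. Without BLM+HBO 2 edgeR called Cbr2 (adjusted P = 0.0308) and Ptgfr (adjusted P = 0.0450), against 1.49% of all tested genes. Without BLM+HBO 2, 7 of the other pathway genes were lower and 12 higher at an unadjusted P below 0.05, against 15.9% of all tested genes, and without BLM+HBO 1, 2 were lower and 6 higher, against 5.7%. The median log2 fold change of the 50 genes was -0.06, beside 0.01 over all tested genes.

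Of the 8 other prostanoid synthase genes tested, 3 were lower at an unadjusted P below 0.05 by edgeR and 0 were higher. Of all tested genes 5.54% were lower and 5.11% higher. The number of synthase genes lower was 1 without BLM 2, BLM+HBO 1 or BLM+HBO 3. In either direction 5.7% of all tested genes passed without BLM+HBO 1 and 7.14% without BLM+HBO 3. Hpgds, the hematopoietic prostaglandin D2 synthase, was at 24.7, 19.7, 20.2 and 15.4 CPM in BLM and at 10.3, 13.1 and 10.54 CPM in BLM+HBO. All BLM+HBO mice were below all BLM mice, with a log2 fold change of -0.82 (SE 0.18, unadjusted P = 0.00133 by edgeR). Ptgis, the prostacyclin synthase, went from 131 ± 33.2 to 87.15 ± 16.3 CPM (SD, n = 4 and 3, log2 fold change -0.59), and Tbxas1, the thromboxane synthase, from 36.0 ± 1.91 to 27.6 ± 7.21 CPM (log2 fold change -0.38), both with overlapping ranges and an unadjusted P above 0.05 without BLM+HBO 1 (0.0703 and 0.163 by edgeR) or without BLM+HBO 3 (0.0599 and 0.132). Ptges3, a cytosolic prostaglandin E synthase and the most abundant of these genes per length, was at 131 ± 11.9 and 135.5 ± 8.35 CPM (log2 fold change 0.05, 95% interval -0.19 to 0.29).

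Among the 8 prostanoid receptor genes tested, 3 were lower and 1 higher at an unadjusted P below 0.05, where 5.54% of all tested genes were lower and 5.11% higher. Without BLM 1 or without BLM+HBO 1 only 1 was lower, Ptger3. In the fit without BLM 1, Ptgdr did not pass the filter on low counts and was not tested. Ptgfr, the receptor for prostaglandin F2 alpha, was at 0.881, 1.80, 2.03 and 2.90 CPM in BLM and at 13.7, 3.83 and 5.625 CPM in BLM+HBO. All BLM+HBO mice were above all BLM mice, BLM+HBO 1 far above the rest, with a log2 fold change of 2.01 (SE 0.49, unadjusted P = 0.00226 by edgeR). It was 1.31 without BLM+HBO 1 (unadjusted P = 0.0134, edgeR) and 2.33 without BLM+HBO 2. The prostaglandin E2 receptors Ptger3 and Ptger2 were lower, with log2 fold changes of -0.77 (SE 0.24) and -0.49 (SE 0.21), and the prostaglandin D2 receptor Ptgdr was lower by a log2 fold change of -1.46 (SE 0.53) at a mean of 0.738 CPM in BLM, with 22.1% of its exon length shared with the antisense gene Gm16976. Ptgfrn, a partner of the prostaglandin F receptor and the most abundant of the list per length, had a log2 fold change of -0.30 (95% interval -0.68 to 0.07).

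Of all tested genes 5.11% were higher at an unadjusted P below 0.05, and of 5 genes of prostanoid breakdown and transport 1 was. This was Cbr2, a carbonyl reductase abundant in lung, at 383, 871, 804 and 519 CPM in BLM and at 2188, 801 and 2270 CPM in BLM+HBO. BLM+HBO 1 and BLM+HBO 3 were far above all other mice and BLM+HBO 2 lay within the BLM range, the same position as for Hpgd relative to the other BLM+HBO mice, and the log2 fold change was 1.44 (SE 0.38, unadjusted P = 0.00364 by edgeR).

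Of 11 phospholipase genes tested, 3 were higher, all at low levels, and 0 lower at an unadjusted P below 0.05. Of all tested genes 5.11% were higher and 5.54% lower. Pla2g2d, a secreted phospholipase A2, was at 0.8445 ± 0.181 CPM in BLM and 2.38 ± 0.874 CPM in BLM+HBO (log2 fold change 1.48), and Pla2g1b, another secreted form, at 3.36 ± 0.884 and 6.63 ± 2.25 CPM (log2 fold change 0.98). Pla2g4b had a log2 fold change of 1.82 at 0.310 ± 0.225 and 1.11 ± 0.330 CPM, and is uncertain because it shares 66.5% of its exon length with Gm28042. Pla2g15, the lysosomal phospholipase with the highest level per length of the list, had a log2 fold change of -0.32 (95% interval -0.66 to 0.01). In the leukotriene and lipoxygenase lists no gene passed the threshold with all mice, 0 of 10 for leukotriene synthesis and breakdown, 0 of 2 other lipoxygenases and 0 of 6 receptors, against 10.7% of all tested genes. Without BLM+HBO 2, 3 genes of the first list were higher (Mgst1, Ggt5 and Dpep1, log2 fold changes of 0.42, 0.59 and 0.86), 1 of the second (Alox12, 0.83) and 1 of the third (Cysltr2, 0.81), where 15.9% of all tested genes passed. Of these, Ggt5, Dpep1 and Cysltr2 were named after their values were seen. The most abundant genes per length of these lists were Mgst1, a microsomal glutathione transferase (log2 fold change 0.26 with all mice), the platelet-type lipoxygenase Alox12 (0.59) and the receptor Cmklr1 (-0.32).

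**Figure D4:**
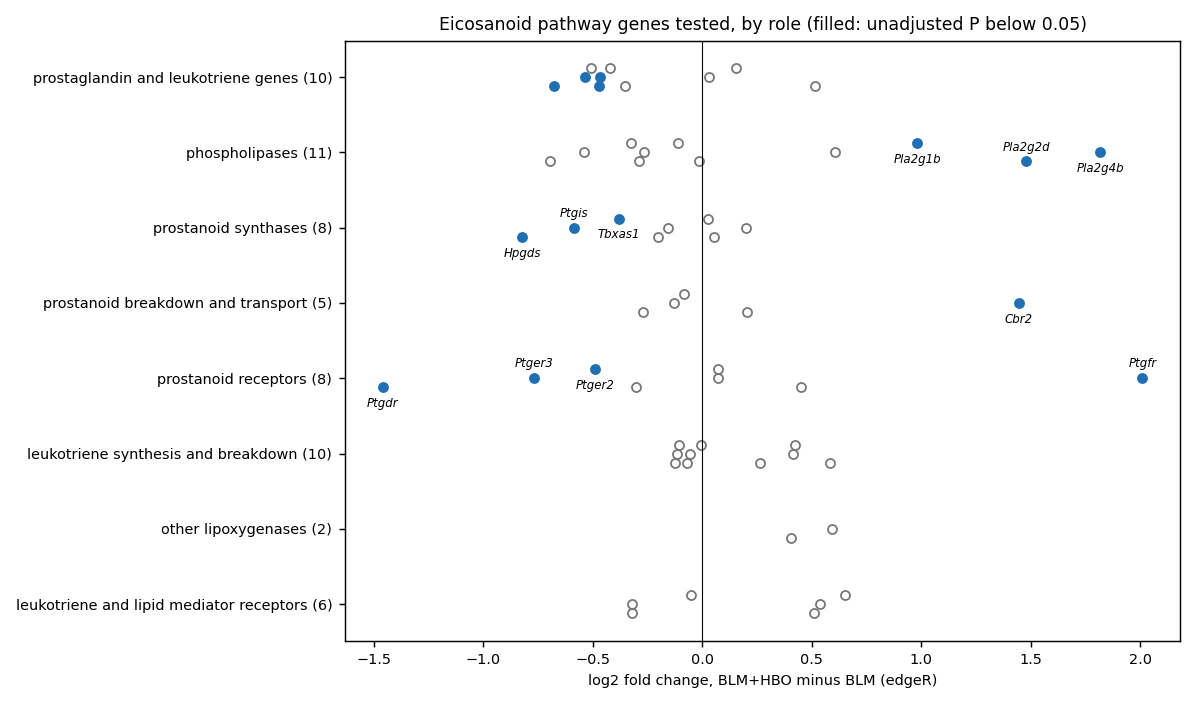
Log2 fold change of BLM+HBO against BLM (horizontal axis, edgeR) for the 10 genes and for 50 other pathway genes grouped by role, 1 point per gene, filled where the unadjusted P was below 0.05 and, outside the top row, named there. Prostanoid synthases with filled points lie below 0, phospholipases with filled points above 0, and the receptors lie on both sides, from -1.46 for Ptgdr to 2.01 for Ptgfr.

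Markers of several cell types differed between the same mice, and their part in the results above was not tested. The threshold for each marker was an unadjusted P below 0.05 by edgeR, which 5.54% of all tested genes passed as lower and 5.11% as higher. With all mice no marker had an adjusted P below 0.05 by edgeR, but DESeq2 called 6 (Mb, Myh6, Actc1, C1qa, C1qb and C1qc), edgeR without the filter on low counts 18, and edgeR without BLM+HBO 2 called 10 (C1qa, C1qb, C1qc, Col1a2, Col3a1, Msln, Wt1, Sftpa1, Ppbp and Mb). Over all genes the shares called at this adjusted P were 0.918% by DESeq2, 1.18% without the filter and 1.49% without BLM+HBO 2. Fibroblast markers were lower for 5 of 5 genes past the threshold, with a summed level of 5870 to 9679 CPM in BLM and 1879 to 6312 CPM in BLM+HBO, highest there in BLM+HBO 2, and this number was 0 without BLM 1 or BLM+HBO 3 and 1 without BLM+HBO 1. Mesothelial markers were lower on average for 5 of 5 genes, 3 of them past the threshold, with sums of 421.8 to 715 and 125.7 to 488 CPM, and 0 passed without BLM 1, BLM+HBO 1 or BLM+HBO 3. Of 8 monocyte and macrophage markers 4 were lower past the threshold (Adgre1, C1qa, C1qb and C1qc) and 0 higher. On average 6 were lower and 2, Ccr2 and Ly6c2, higher. The sums of the 8 were 1213 to 1877 CPM in BLM and 739.4 to 1199 CPM in BLM+HBO and did not overlap. Taken singly, only 1 of the 8, C1qc, had ranges that did not overlap between the groups. Of 6 alveolar macrophage markers Marco and Chil3 were lower and Krt79 was higher, with sums of 522.4 to 1983 and 501 to 683.3 CPM.

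The sums of the AT2 and of the airway markers were highest in BLM+HBO 1 and BLM+HBO 3, as were Hpgd and Cbr2. Sftpc and Scgb1a1 made up most of these sums, with 14820 and 12250 CPM in BLM+HBO 1. Not every gene had this order. Sftpb and Abca3 of BLM+HBO 1 lay within the BLM range, and so did Foxj1 of BLM+HBO 1 and BLM+HBO 3. AT2 markers were higher on average for 6 of 6 genes, 1 past the threshold (4 without BLM+HBO 2, 0 without BLM+HBO 1 or BLM+HBO 3), and summed to between 8745 and 16000 CPM in BLM and to 23810, 11110 and 27490 CPM in BLM+HBO 1, 2 and 3. Of all tested genes 15.9% passed in either direction without BLM+HBO 2, 5.7% without BLM+HBO 1 and 7.14% without BLM+HBO 3. Airway markers were higher for 5 of 5 genes, 3 past the threshold (0 without BLM+HBO 3), with sums of 5569 to 11840 CPM in BLM and of 14250, 9347 and 19590 CPM in BLM+HBO 1, 2 and 3. AT1 markers summed to between 2547 and 4263 CPM in BLM and to 3371, 3544 and 4052 CPM in BLM+HBO 1, 2 and 3. Of these 5 genes Pdpn was lower past the threshold and Ager was nearly equal (log2 fold change -0.01). The other 3, Rtkn2, Hopx and Aqp5, were higher on average (0.48, 0.25 and 0.10) and did not pass. Endothelial markers summed to between 1880 and 2480 and between 2074 and 2766 CPM with 0 of 7 past the threshold (4 higher without BLM+HBO 2).

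Heart muscle markers were higher for 7 of 8 genes past the threshold, with sums of 59.57 to 169.9 CPM in BLM and 148.9 to 616.9 CPM in BLM+HBO, highest in BLM+HBO 1, without which 4 passed. Platelet markers summed to between 40.24 and 55.02 CPM in BLM and to 135.1, 52.99 and 46.53 CPM in BLM+HBO 1, 2 and 3. Ppbp was higher past the threshold, Itga2b and Gp9 were higher on average, Pf4 was lower (log2 fold change -0.16) and Gp1bb was at 0 in every mouse. Without BLM+HBO 1 the log2 fold changes of Itga2b and Gp9 were -0.001 and -0.04, and that of Ppbp was 0.90. Neutrophil markers had 0 of 6 genes past the threshold and sums of 163.4 to 225.2 and 101 to 486.3 CPM, highest in BLM+HBO 1, in which Alox5 was lowest, and without BLM+HBO 1 all 6 were lower past the threshold, where 5.7% of all tested genes passed. Eosinophil markers were near 0, with sums of 2.053 to 3.495 and 1.80 to 2.609 CPM, Prg2 lower past the threshold and Epx at 0 in 3 mice. Of 7 mast cell and basophil markers, Ms4a2, Tpsb2 and Mcpt8 were too low to be tested and none of the other 4 passed, with sums of 49.12 to 78.19 and 68.92 to 97.54 CPM, mostly from Hdc. Adipocyte markers summed to between 15.09 and 19.9 CPM and to between 12.51 and 14.7 CPM, mostly from Fabp4, which was lower past the threshold. Adipoq and Cidec went the other way, with log2 fold changes of 0.71 and 1.21 that did not pass it. Plin1, Lep and Retn were too low to be tested.

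For each gene, the tested genes with the most similar course over the 7 mice were found by the root mean square distance of log2 CPM, centred on its mean. Ptgs1 was followed most closely by Serinc2, at a distance of 0.0591, and Nek6, at 0.0773. The nearest genes to Ptges were Chst5 (0.0848) and Rhou (0.0997), and those to Alox5ap were Cela1 (0.0683) and Fut10 (0.108). Alox5 lay nearest to Grin2d (0.0871) and Msx1 (0.0897), Ptger4 to Dact1 (0.0886) and Cp (0.0895), and Hpgd to Sybu (0.119) and Gm4739 (0.124). The nearest genes of the other 4 lay farther away, at distances of 0.150 to 0.431, for Ptgds (Gm13212 and Epm2a), Ltc4s (Gm16418 and Nrtn), Ptgs2 (Lrrc55 and Atp8a2) and Alox15 (Gm28438 and Ccl20). A small distance over 7 mice is a description and carries no test.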

How the data were processed

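The authors prepared NEBNext Ultra libraries for paired-end sequencing on a NovaSeq, used Trim Galore for trimming, HISAT2 2.2.0 for alignment against GRCm38 and featureCounts for counting. The deposited values were raw read counts, without normalization and without use of the strand, and the annotation release was not given in the sources used here. Low counts were removed by filterByExpr (minimum count 10, minimum total 15), and genes were normalized by TMM and tested with the quasi-likelihood test of edgeR 4.0.16 (R 4.3.3) on all 7 mice with Benjamini-Hochberg adjustment over 17465 genes. DESeq2 1.42.0 and limma 3.58.1 were alternatives, beside other normalizations and filters, a robust fit, a replicate block, transcript lengths for the ratios and leaving out each mouse. P-values set the difference between the groups against the spread between mice.

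The genes, the pathway and marker lists and the tests were chosen with earlier results of these data known. Beside the 10 genes, other pathway genes were named where the unadjusted P was below 0.05 or the level per kb was the highest of their list, and for each gene the 2 nearest genes with at least 1 CPM on average. Per-length levels used the exon length of the count table. All libraries of 1 group differed by more than sampling noise.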

Additional observations from a re-analysis of the deposited data

Results flagged for a closer look

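In the BLM group the highest or lowest mouse stood apart from the other 3 for 3 of 33 groups of 4 mice examined, with a gap to its neighbour, as a share of the group's range, above Dixon's 95% critical value. Chance flags about 1 in 20 such groups, and the groups of 3 BLM+HBO mice were not examined. BLM 3 was apart for Alox15, with a gap of 0.864 of the range, and for the ratio of Alox15 to Alox5 per length, with 0.835. On the log2 scale the gap of Alox15 was 0.705. BLM 1 was apart for Pla2g1b, at 2.04 CPM against 3.73 to 3.84 CPM in the other BLM mice, a gap of 0.939 of the range.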

How the results depend on the processing

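With only 3 BLM+HBO mice the intervals were wide, and Ptgds and Alox15 had few reads. Of the 10 genes, the number past P below 0.05 and a fold above 1.5 was 1, and 0 to 5 when single mice were left out (0 without BLM+HBO 3, 5 without BLM+HBO 2). The number past an adjusted P of 0.05 was 0, but 2 without the filter on low counts, 2 by DESeq2 and 0 to 1 with single mice left out. For the other pathway genes these counts were 9 (7 to 16 with single mice left out) and 0 (3 without the filter, 3 by DESeq2, 0 to 2 with single mice left out), and 11 had an unadjusted P below 0.05 (8 to 19 with single mice left out). Over all genes, 1098 passed P and fold (1940 without the filter, 659 to 1914 with single mice left out, with 706 without BLM 1 and 659 without BLM+HBO 1) and 0 the adjusted P (387 without the filter, 155 by DESeq2, 0 to 267 with single mice left out, 267 without BLM+HBO 2 and 2 without BLM+HBO 3). The log2 fold change turned sign for Ptgs2 without BLM 2 (-0.10) or BLM+HBO 1 (-0.02), for Ptgds in the fits that left out BLM 1 (-0.03), BLM 3 (-0.17), BLM+HBO 1 (-0.22) and BLM+HBO 2 (-0.12), and for Alox15 without BLM 3 (0.43), and with single mice left out the values ranged from -0.10 to 0.42, from -0.22 to 0.37 and from -0.79 to 0.43. The causes were not tested. The remaining 149 counts and ratios and 379 log2 fold changes kept their direction and their side of the threshold, or stayed within 1.5 times, and 13 further values of log2 fold change went past an adjusted P of 0.05.

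The groups share replicate numbers 1 to 3, which the labels do not tie to a shared animal or day. The deviations of same-numbered mice from their group means correlated at -0.01, -0.07 and 0.16, so the numbers were not taken as pairs. With the replicate block, 2 of the 10 genes passed P and fold (Ptges and Ltc4s), 10 other pathway genes and 1258 of all genes.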
